A study of Mus musculus with 40 samples.

Results

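The genes described here encode the cell junctions and the epithelial adhesion proteins of 4T1, a mouse mammary carcinoma cell line. They are 37 genes named by symbol, and all 37 were listed among the 23480 genes of each of the 2 deposited tables. By role they comprise 1 epithelial surface adhesion gene (Epcam), 8 adherens junction genes, 10 desmosome genes, 14 tight junction genes, 2 polarity genes and 2 gap junction genes. The tables use the older symbols Pvrl1, Pvrl2 and Pvrl4 for the nectins. A total of 25 members lay high enough for the test in both tables, Pkp1 passed the minimum in the Mgp table alone, and 11 passed it in neither.

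Epithelial cells hold together through junctions that sit in order along their sides. At adherens junctions, cadherins such as E-cadherin (Cdh1) and the nectins bind the neighbouring cell and are tied to actin by the catenins. Desmosomes join the keratin networks of neighbouring cells through desmosomal cadherins (Dsg2, Dsc2), plakoglobin (Jup), plakophilins and plakins. Tight junctions seal the space between cells with claudins, occludin and related proteins on a scaffold of zonula occludens and cingulin proteins, and gap junctions, built of connexins, connect the cytoplasm of neighbours. In carcinoma cells these genes are commonly used to place a line between epithelial and mesenchymal states.

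Each of 10 lines carried 1 short hairpin RNA (shRNA), a transcribed stem-loop that is processed into a small RNA guiding the silencing of a matching transcript. The study's purpose was to compare the off-target effects of hairpins from the TRC collection with those of hairpins chosen by the shERWOOD algorithm and carried in a microRNA backbone. The Slpi table holds 66708, Slpi1U1, Slpi1U2, Slpi2 and Slpi4, and the Mgp table holds 88943, Mgp1, Mgp1U1, Mgp1U3 and Mgp2. Hairpins 66708 and 88943 are taken here as the TRC hairpins, from their catalogue-style names and their drug, and the other 8 as shERWOOD hairpins. Lines 66708 and 88943 were selected with puromycin at 1 µg/ml and the other 8 with hygromycin at 500 µg/ml, so hairpin source, hairpin and drug cannot be told apart. Infection was at a multiplicity of 0.3 with an average of 10 days of selection in all lines, and no uninfected line was among the samples. The tables hold 2 libraries per hairpin, against 4 samples per hairpin in the labels. No label says whether the libraries of a hairpin were separate cultures, and the p-values cover only the spread between them, which may be technical.

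Libraries of the Slpi table held 12.2 to 28.5 M reads, and those of the Mgp table held 12.1 to 23.3 M. The targeted Slpi transcript stood at 48.2 to 60.9 CPM (reads scaled to a common library total) in the 4 shERWOOD lines of the Slpi table and at 145 to 156 CPM in the libraries of 66708. Mgp stood at 1.15 to 8.32 CPM in the shERWOOD lines of the Mgp table and at 15.4 to 16.2 CPM in the libraries of 88943. The TRC lines also differed from their table mates in the other gene, with Mgp at 102 to 108 CPM in 66708 against 15.4 to 29.9, and Slpi at 135 to 145 CPM in 88943 against 453 to 586. Keratins 7, 8, 18 and 19, which mark epithelial cells, all exceeded 1 CPM in both tables, and 6 leukocyte and 4 endothelial markers stayed below 1 CPM in every library. The shares of Rn45s, a ribosomal RNA precursor, were 2.31% and 2.77% of reads in the libraries of 66708 and 1.27% to 1.87% in the 8 others of the Slpi table. In the Mgp table they were 1.54% and 1.39% in 88943, 2.39% and 1.29% in Mgp2, and 0.96% to 1.71% in the remaining libraries.

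In the shERWOOD lines, catenins and E-cadherin were the most abundant members. Levels between genes are compared in CPM per kb of annotated exon bases, averaged over the 8 shERWOOD hairpins of both tables, which the authors normalized separately. Ctnnb1, which encodes β-catenin, led at 272 CPM per kb, followed by Cdh1 at 101, Ctnna1 (α-catenin) at 67.0, Ctnnd1 (p120-catenin) at 65.7, Tjp1 (ZO-1) at 40.8 and Cldn3 at 40.1. In CPM, the shERWOOD means of Ctnnb1 ran from 1333 to 1544 and those of Cdh1 from 401 to 508. Epcam ranked ninth at 29.0 CPM per kb, Jup stood at 8.46 and Cldn4 at 6.69. Of the claudins, Cldn3 was the most abundant per kb, with Cldn12 at 12.0, Cldn7 at 1.80 and Cldn6 at 0.609. P-cadherin (Cdh3), the cadherin of basal epithelium, was at 0.0771 CPM per kb with 129 reads in all 20 libraries. Cldn1 had 40 reads, Pvrl4 had 42 and Gjb2 had 3 in all 20 libraries, and none of these 3 genes passed the test in either TRC line. Counted on either strand, exons of Ctnnd1 share 61.2% of their bases with another gene model and those of Ctnnb1 15.1%. Their counts may therefore be less certain than those of the other members, and the effect on the authors' counts was not tested.

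**Figure D1:**
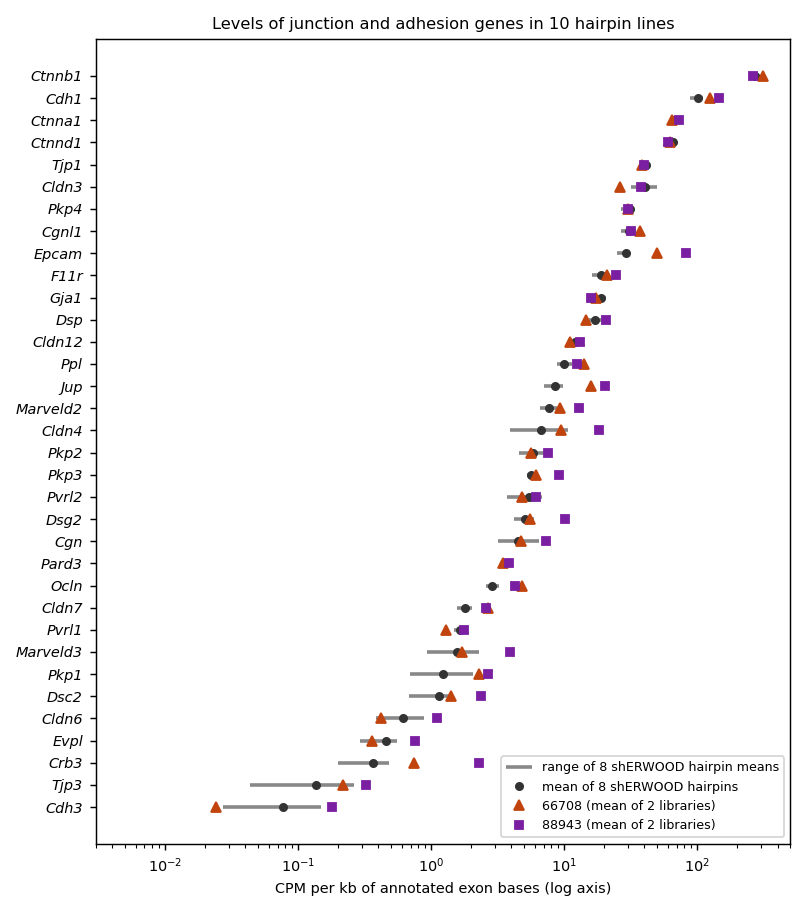
Levels of 34 junction and adhesion genes in CPM per kb of exon (log axis). Dots are means of 8 shERWOOD hairpins, grey bars the range of the 8 hairpin means, triangles 66708 and squares 88943. Ctnnb1 and Cdh1 are at the top, and the 88943 squares of Epcam, Jup, Cldn4 and Crb3 lie right of the grey bars. Cldn1, Pvrl4 and Gjb2 are left out for their few reads.

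The starts of 4 genes with differences described below are printed, and no link between sequence and difference was tested. Among the tested members Epcam and Jup had the 2 largest positive differences in each TRC line, and Cldn3 and Cldn4, which lie 39.28 kb apart on chromosome 5, did not move together. Each run is the 250 bases before the annotated gene start (RefSeq, GRCm38.p6), 5′ to 3′ on the gene's strand. Capitals mark CACCTG and its reverse complement CAGGTG, a pair of E-box motifs known to be bound by Zeb and Snai repressors.
Epcam, chr17:87635729-87635978, plus strand: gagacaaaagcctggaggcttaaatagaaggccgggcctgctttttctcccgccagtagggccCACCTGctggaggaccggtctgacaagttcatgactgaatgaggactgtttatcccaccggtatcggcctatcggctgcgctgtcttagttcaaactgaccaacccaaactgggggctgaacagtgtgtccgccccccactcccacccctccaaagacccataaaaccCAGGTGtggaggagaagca
Jup, chr11:100397791-100398040, minus strand: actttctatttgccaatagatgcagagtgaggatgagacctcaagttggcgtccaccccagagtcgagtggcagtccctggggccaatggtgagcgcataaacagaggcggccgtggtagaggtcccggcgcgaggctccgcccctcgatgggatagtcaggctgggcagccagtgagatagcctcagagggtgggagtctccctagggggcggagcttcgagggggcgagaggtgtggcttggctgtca
Cldn4, chr5:134946935-134947184, minus strand: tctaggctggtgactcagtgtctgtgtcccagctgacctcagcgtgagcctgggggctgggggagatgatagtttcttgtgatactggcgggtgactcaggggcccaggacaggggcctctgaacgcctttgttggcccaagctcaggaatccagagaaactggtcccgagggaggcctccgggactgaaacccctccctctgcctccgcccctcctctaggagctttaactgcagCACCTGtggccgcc
Cldn3, chr5:134985964-134986213, plus strand: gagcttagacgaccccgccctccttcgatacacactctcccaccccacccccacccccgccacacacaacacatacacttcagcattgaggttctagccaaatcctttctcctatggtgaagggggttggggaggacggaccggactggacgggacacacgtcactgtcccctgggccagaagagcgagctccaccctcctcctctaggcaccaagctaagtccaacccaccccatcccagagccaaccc

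The Epcam window holds the motif 187 and 19 bases before the gene start, and that of Cldn4 holds it once, 14 bases before. The windows of Jup and Cldn3 hold no match. A window was listed for 25 of the 37 members, and 12 of these (48.0%) hold the motif on either strand, against 5252 of 27025 genes (19.4%). Some members had several windows, for several annotated starts, and counted if any window held the motif. Pkp4, Ocln, Cldn7 and Pard3 counted through only part of their windows. These counts describe letters in a window and were not tested.

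The first comparison asked how the junction genes of 66708 stood against those of the 4 shERWOOD hairpins in the same table. Plakoglobin, Epcam, periplakin, occludin and E-cadherin were higher in 66708, and claudin 3 was lower. Of the 25 members tested, 8 were higher, 3 were lower and 14 did not pass, at an adjusted p under 0.05 over all 9489 genes tested. Over all genes 55.7% were called, 32.1% higher and 23.6% lower, so 8 of 25 was near the background and 3 of 25 under it. The median difference of the tested members was -0.01 on the deposited log2-like scale, against 0.02 over all genes tested. Both libraries of 66708 lay above all 8 others for 9 members (28.3% of all genes) and below them for 3 (20.4%). In bulk libraries such as these, a change in the share of cells with a transcript and a change in RNA per cell cannot be told apart.

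Values by library are given in scaled reads, which are reads divided by the authors' size factor for that library. Jup, the gene of plakoglobin in the desmosomal plaque, maps to chromosome 11 (GRCm38, minus strand, 100368958 to 100397763, ENSMUSG00000001552). The libraries of 66708 held 1879 and 1704 scaled reads of Jup, and the 8 others 908 to 1094 with a median of 976. The groups did not overlap, and 66708 was 1.83-fold higher, with a deposited-scale difference of 0.66 ± 0.04 (SE, with limma's adjusted p = 6.307e-09). Epcam, an epithelial surface adhesion glycoprotein, is on the plus strand of chromosome 17 (87635979 to 87651129, ENSMUSG00000045394). It had 1843 and 1960 scaled reads in 66708, against 1047 to 1175 with a median of 1119 in the others. This was 1.72-fold, or 0.60 ± 0.04 on that scale (adjusted p = 3.418e-08, limma). Every 66708 value of Epcam lay above the highest shERWOOD library, and the 4 shERWOOD means differed by at most 0.04.

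Other desmosome genes of the Slpi table gave mixed results. Periplakin (Ppl), a plakin linking the plaque to keratin, stood at 1675 and 1717 scaled reads in 66708, against 971 to 1329 in the others (0.45 ± 0.04, adjusted p = 2.072e-07, limma). Desmoplakin (Dsp), the main plakin of desmosomes, was at 2443 and 2451 scaled reads within a range of 2296 to 2790 and did not pass. Plakophilin 2 (Pkp2), a plaque armadillo protein, was lower at 520.5 and 533 scaled reads against 551 to 674 (-0.12 ± 0.04, adjusted p = 0.0135, limma). The call for Pkp2 was lost without either library of 66708 (adjusted p = 0.108 and 0.0579) and with hairpin means as samples (0.118). Dsg2, Pkp3, Pkp4 and Dsp did not pass, at differences from -0.04 to 0.11. Plakophilin 1 (Pkp1), below the minimum here, had 208 and 195 scaled reads in 66708 and 53.3 to 85.8 in the others, a 3.04-fold difference (0.53 ± 0.04, adjusted p = 4.787e-05, limma on all genes that varied).

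Among adherens junction genes, E-cadherin and β-catenin were higher in 66708. Cdh1 is on the plus strand of chromosome 8 (106603351 to 106670246, ENSMUSG00000000303) and had 9824 and 10123 scaled reads, against 7294 to 7963 in the 8 others. The difference was 1.30-fold, or 0.36 ± 0.04 (adjusted p = 4.248e-06, limma). Ctnnb1 had 27641 and 28781 scaled reads, against 21258 to 26416, and was 1.21-fold higher (0.27 ± 0.04, adjusted p = 5.638e-05, limma). The libraries of 66708 lay above all others for both genes, with the smaller gap for Ctnnb1, whose Slpi4 libraries came next. Nectin 2 (Pvrl2), a nectin that also serves as an immune receptor ligand, was lower at 296 and 294 scaled reads against 308 to 414 (-0.15 ± 0.05, adjusted p = 0.0145, limma). This call was lost without either library of 66708 (adjusted p = 0.0818 and 0.0845), with hairpin means as samples (0.0628) and in a fit of all genes that varied (0.0576). Ctnna1, Ctnnd1 and Pvrl1 did not pass, at -0.03, -0.01 and -0.05.

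The tight junction genes split by gene. Occludin (Ocln), a membrane protein of the seal, was at 337 and 371 scaled reads in 66708, against 166 to 231 in the others (1.75-fold, 0.38 ± 0.04, adjusted p = 1.355e-06, limma). Tricellulin (Marveld2), which seals the points where cells meet in groups, stood at 539 and 559 against 358 to 503 scaled reads (0.21 ± 0.05, adjusted p = 0.00257, limma). Paracingulin (Cgnl1), a junction scaffold protein, was 1.29-fold higher at 5064 and 5141 scaled reads against 3630 to 4254 (0.34 ± 0.04, adjusted p = 1.877e-06, limma). Claudin 3 (Cldn3), on the plus strand of chromosome 5 (134986214 to 134987472, ENSMUSG00000070473), went the other way. Its libraries held 584 and 567 scaled reads in 66708 and 859 to 1050, with a median of 908, in the 8 others. That made Cldn3 1.62-fold lower in 66708 (-0.46 ± 0.04, adjusted p = 1.211e-07, limma), with no overlap of the groups. Its neighbour claudin 4 (Cldn4) stood at 315 and 287 scaled reads, inside the shERWOOD range of 201 to 324, and did not pass (0.11 ± 0.05, adjusted p = 0.105, limma). Cldn12, Tjp1, F11r (JAM-A) and Cgn (cingulin) did not pass either, nor did the polarity gene Pard3 and the connexin 43 gene Gja1.

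The 11 weakest members and Pkp1 were compared in a second model, fitted to the 21107 genes whose values varied at all, in which 27.5% were called, 14.4% higher and 13.2% lower. Pkp1, Cldn7 and Crb3 were higher, Cdh3 and Evpl lower, and 7 did not pass. Crb3, a polarity protein of the apical membrane, had 23.7 and 16.5 scaled reads in 66708 against 4.16 to 13.4. The calls of Crb3 and Cldn7 were lost without the first library of 66708 (adjusted p = 0.207 and 0.164), that of Evpl without either library of 66708 (0.111 and 0.0742), and that of Cdh3 in 9 of 10 leave-outs. Crb3 was also lost without either library of Slpi4 (adjusted p = 0.0512 and 0.0590).

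The counts of lower members in 66708 rested on the scale. On the scale of library totals, fitted with voom on the recovered reads and chosen as an alternative after the data were seen, 8 members were higher and 12 lower, and after quantile normalization 8 were higher and 9 lower. The share of higher among called members was 72.7% on the authors' scale, 40.0% by library totals and 47.1% by quantiles. Over all genes the split moved as well. It was 3046 higher and 2239 lower on the authors' scale, 2063 and 3338 by library totals, and 2476 and 2565 by quantiles. Total reads per size factor were 6.38% higher in 66708 than in the other hairpins. The 8 higher calls and that of Cldn3 held under every alternative in which these genes were tested.

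**Figure D2:**
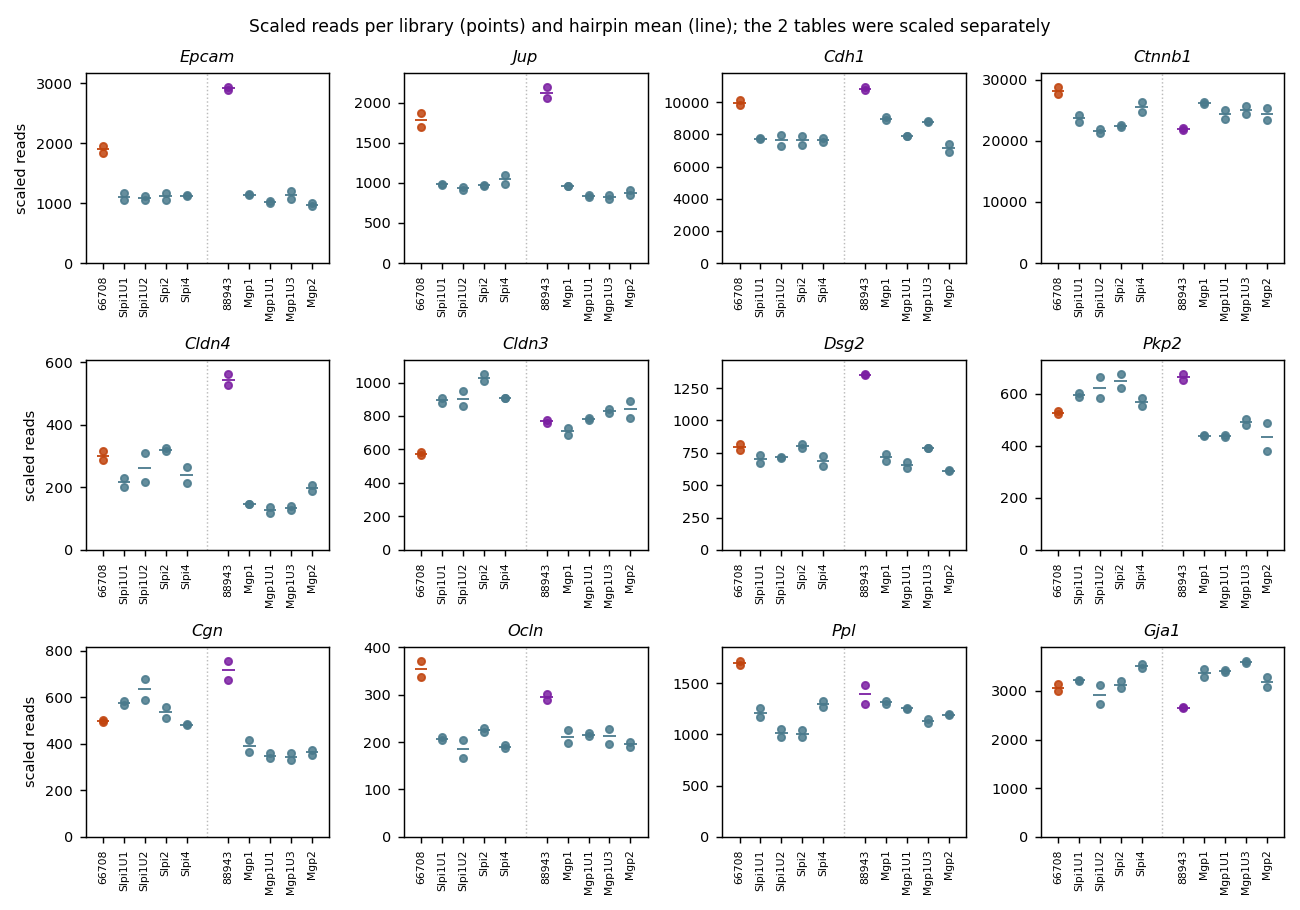
Scaled reads of 12 junction and adhesion genes in each library (points), with a line at each hairpin mean, for the 5 hairpins of the Slpi table (left of the dotted line) and of the Mgp table (right). TRC lines 66708 (orange) and 88943 (purple) stand above the shERWOOD lines for Epcam, Jup and Cdh1. Cldn4 stands out as high in 88943 and Cldn3 as low in 66708. Vertical axes start at 0 and differ between genes.

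The second comparison set 88943 against the 4 shERWOOD hairpins of the Mgp table. Epcam, plakoglobin, claudin 4, desmoglein 2 and cingulin were 1.95-fold to 3.59-fold higher in 88943, and connexin 43 was lower. Of 26 members tested, 14 were higher, 5 lower and 7 did not pass, where 70.7% of all 9174 genes were called, 28.7% higher and 42.0% lower. The median difference was 0.14 for the tested members and -0.04 for all genes tested. Both libraries of 88943 lay above all 8 others for 12 members (24.3% of all genes) and below them for 3 (36.2%). By role, 6 of 8 tested desmosome genes and 5 of 9 tested tight junction genes were higher, with 1 lower in each, while 2 of 6 adherens junction genes were higher and 2 lower.

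Epcam had 2896 and 2936 scaled reads in 88943, against 946 to 1199 with a median of 1057 in the 8 other libraries. The difference was 2.73-fold, or 1.13 ± 0.03 (adjusted p = 3.091e-13, limma), and ranked 20 from the highest among 9174 genes. Plakoglobin (Jup) was at 2195 and 2058 scaled reads against 794 to 966, a 2.43-fold difference (0.95 ± 0.03, adjusted p = 2.211e-12, limma). For both genes the lower 88943 library held more than the highest shERWOOD library by a gap wider than the whole shERWOOD range. E-cadherin (Cdh1) was 1.32-fold higher, at 10769 and 10931 scaled reads against 6927 to 9069 (0.39 ± 0.03, adjusted p = 4.233e-08, limma).

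Of the 8 desmosome genes tested in 88943, 6 were higher, Pkp4 was lower and Dsp did not pass. Desmoglein 2 (Dsg2), a cadherin of the desmosome, stood at 1358 and 1349 scaled reads against 609 to 791, a 1.95-fold difference (0.66 ± 0.03, adjusted p = 8.857e-11, limma). Its partner cadherin desmocollin 2 (Dsc2), below the minimum, had 203 and 201 scaled reads against 54.4 to 116 (2.14-fold, 0.37 ± 0.03, adjusted p = 3.505e-06, limma on all genes that varied). Plakophilin 2 was at 674 and 653 scaled reads against 379 to 503 (1.48-fold, 0.32 ± 0.04, adjusted p = 3.648e-06, limma). Plakophilin 3 (Pkp3), also of the plaque, was higher at 565 and 519.5 against 335 to 388 scaled reads (0.31 ± 0.03, adjusted p = 8.597e-07, limma). The 88943 libraries lay above all others for these 4 genes.

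Plakophilin 1 had 189 and 245 scaled reads in 88943 against 113 to 213, with overlapping groups (0.21 ± 0.04, adjusted p = 6.305e-04, limma). Periplakin had 1300 and 1487 against 1115 to 1328 scaled reads (0.14 ± 0.04, adjusted p = 0.00312, limma). Without the second library of 88943, the difference fell to 0.13 for Pkp1 (adjusted p = 0.0571) and to 0.07 for Ppl (0.200), so 1 library decided both calls. With hairpin means as samples the adjusted p was 0.0561 for Pkp1 and 0.136 for Ppl. Plakophilin 4 (Pkp4) was lower at 2754 and 2804 scaled reads against 2631 to 3281 (-0.12 ± 0.03, adjusted p = 0.00411, limma), and both values lay inside the shERWOOD range. Desmoplakin did not pass (0.03 ± 0.04, adjusted p = 0.553, limma).

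Claudin 4 gave the largest fold among the tested members. Cldn4, a sealing claudin, maps to chromosome 5 (minus strand, 134945119 to 134946934, ENSMUSG00000047501). It had 561 and 526 scaled reads in 88943, against 117 to 209 with a median of 142 in the others. The difference was 3.59-fold, or 0.84 ± 0.03 (adjusted p = 6.613e-12, limma). Claudin 3, its neighbour, was at 760.1 and 778 scaled reads within a shERWOOD range of 689 to 889 and did not pass (-0.02 ± 0.04, adjusted p = 0.562, limma). Cldn3 passed the test in 66708 and Cldn4 in 88943, and the difference between the TRC lines was not tested.

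Cingulin (Cgn), an actin- and microtubule-binding protein of the tight junction, was at 675 and 756 scaled reads in 88943 against 328 to 418 (1.98-fold, 0.55 ± 0.04, adjusted p = 4.068e-09, limma). Tricellulin was 1.55-fold higher at 711 and 721 scaled reads against 357 to 554 (0.37 ± 0.04, adjusted p = 5.805e-07, limma). Occludin (0.21 ± 0.03) and F11r (0.24 ± 0.04), an immunoglobulin-like adhesion molecule of the tight junction, also had both 88943 libraries above all others. ZO-1 (Tjp1), the scaffold protein, was lower at 5091 and 5078 scaled reads, within a shERWOOD range of 4958 to 5704 (-0.10 ± 0.03, adjusted p = 0.0112, limma). Paracingulin, claudin 12 and Pard3 did not pass, at -0.05, 0.02 and -0.02.

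Connexin 43 (Gja1), the gap junction channel protein, was lower in 88943. Its libraries held 2645 and 2659 scaled reads against 3071 to 3614 with a median of 3411 in the others, a 1.28-fold difference (-0.30 ± 0.03, adjusted p = 7.257e-07, limma). The catenins Ctnnd1 (7153 and 7279 scaled reads against 8242 to 8681) and Ctnnb1 (21833 and 22119 against 23362 to 26432) were lower as well. Their differences were -0.22 ± 0.03 (adjusted p = 1.588e-05) and -0.18 ± 0.04 (adjusted p = 0.00101, limma). Of the lower calls, that of Gja1 held under every alternative, and the other 4 were lost under at least 1. After quantile normalization Ctnnb1 was at 0.039 (adjusted p = 0.403), Pkp4 at 0.0056 (0.882), Tjp1 at 0.056 (0.133) and Ctnnd1 at -0.033 (0.418). On the scale of library totals Ctnnb1 was at -0.050 (adjusted p = 0.258), Pkp4 at -0.0020 (0.966) and Tjp1 at 0.024 (0.588). Without the first library of 88943 the adjusted p was 0.0610 for Pkp4 and 0.0736 for Tjp1, and without the second it was 0.0825 for Tjp1. With hairpin means as samples Ctnnb1 (adjusted p = 0.114), Pkp4 (0.309) and Tjp1 (0.322) did not pass.

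Nectin 2 was called higher in 88943, at 340 and 357 scaled reads against 221 to 370 (0.15 ± 0.05, adjusted p = 0.00907, limma). That call was lost without the second library of 88943 (adjusted p = 0.100) and with hairpin means as samples (0.204). In all, 12 of the 19 calls in 88943 held under every alternative tested. The share of higher among called members was 73.7% on the authors' scale, 94.4% after quantile normalization (17 higher, 1 lower) and 89.5% by library totals (17 higher, 2 lower). Over all genes the split was 2635 higher and 3855 lower on the authors' scale, 3097 and 3301 after quantile normalization, and 3947 and 2656 by library totals. Among the 9 members at least 3 units above the smallest value, 1 was higher and 5 lower in 88943, so 16.7% of those called were higher. The median difference over the 2488 genes at that level was -0.15, and the share of them called is not given here. Total reads per size factor in 88943 were 8.92% below those of the other hairpins, and in voom fits of the recovered reads the change from size factors to library totals moved the median over all genes by 0.14.

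The 11 weakest members were compared in 88943 over the 19354 genes that varied, of which 43.6% were called, 22.2% higher and 21.3% lower. Dsc2, Marveld3, Crb3, Tjp3, Evpl, Cldn6, Cdh3 and Cldn7 were higher, and Pvrl4, Cldn1 and Gjb2 did not pass. Marveld3, a tight junction membrane protein, had 218 and 199 scaled reads in 88943 against 44.0 to 89.2, a 3.08-fold difference (0.51 ± 0.04, adjusted p = 4.602e-07). Crb3 had 54.4 and 62.1 against 7.34 to 17.2 scaled reads (5.23-fold), and ZO-3 (Tjp3) 18.1 and 20.9 against 1.22 to 6.50 (5.18-fold). The groups of these 3 genes did not overlap, though the folds of Crb3 and Tjp3 rest on few reads. The call of Cldn6 was lost without either library of 88943 (adjusted p = 0.192 and 0.0907), and that of Cdh3 in most leave-outs.

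**Figure D3:**
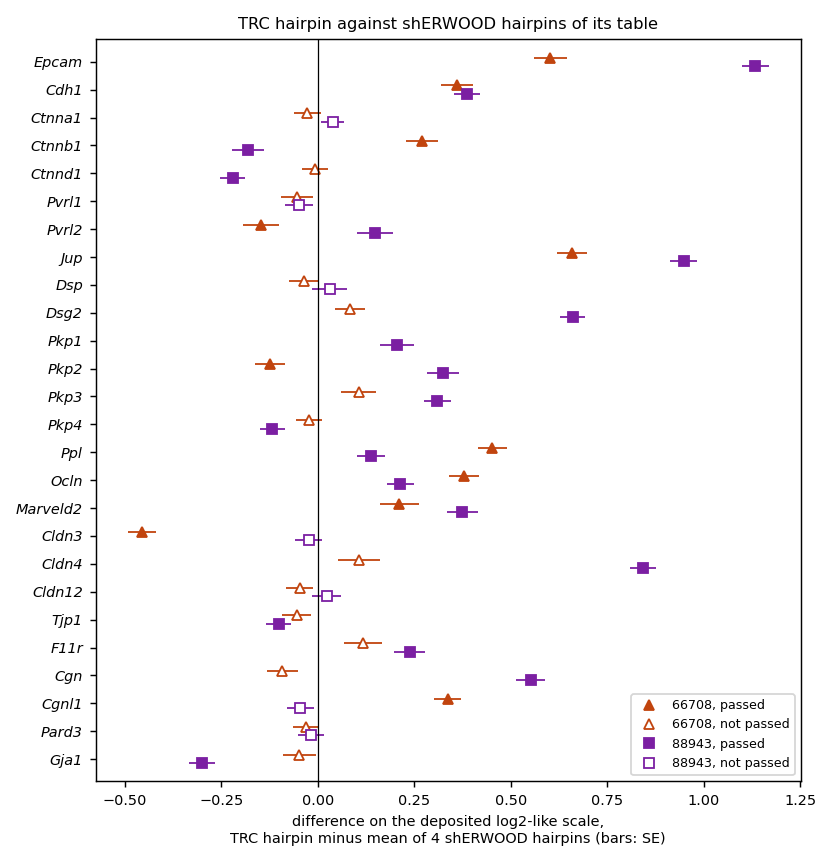
Difference of each TRC hairpin from the 4 shERWOOD hairpins of its table, averaged, on the deposited log2-like scale, for 26 junction and adhesion genes. Triangles are 66708 and squares 88943, filled where adjusted p was under 0.05 and open otherwise, and bars are SE. Epcam and Jup lie farthest right in both lines, Cldn4 and Dsg2 in 88943, and Cldn3 lies farthest left in 66708.

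Of the 25 members tested in both tables, 6 were higher in both TRC lines, where 6.44% of the 9144 genes tested in both tables were. These 6 were Epcam, Cdh1, Jup, Ppl, Ocln and Marveld2, and of these the call of Ppl in 88943 was lost without the second library of 88943 (0.066, limma's adjusted p = 0.200) and with hairpin means as samples. A further 3 were called in opposite directions (29.0% of genes). Ctnnb1 was higher in 66708 and lower in 88943, and Pvrl2 and Pkp2 were lower in 66708 and higher in 88943. The opposite calls rest in part on calls that were lost under alternatives, namely those of Ctnnb1 and Pvrl2 in 88943 and of Pvrl2 and Pkp2 in 66708. Cgnl1 and Cldn3 were called in 66708 and not in 88943, and 9 members in 88943 and not in 66708. Ctnna1, Pvrl1, Dsp, Cldn12 and Pard3 were called in neither. Over all genes tested in each table, 55.7% were called in 66708 and 70.7% in 88943. The share of genes called in a single line or in neither was not counted. The tables share no library, and they were scaled separately.

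The third comparison was among the shERWOOD hairpins themselves, which were all selected with the same drug. In the Slpi table, 6 of 25 members were called in at least 1 of the 6 pairs of shERWOOD hairpins, where 11.6% of all genes were. These gave 8 calls in 150 member-pair comparisons. Slpi1U2 against Slpi4 had 4 members called (6.48% of all genes), while Slpi1U1 against Slpi2 (4.66%) and Slpi2 against Slpi4 (4.18%) had 2 each. In the remaining pairs the share of all genes called was 0.79% for Slpi1U1 against Slpi1U2, 2.4% for Slpi1U1 against Slpi4 and 1.64% for Slpi1U2 against Slpi2. Periplakin gave 3 of them, with Slpi4 at 78.3 CPM, Slpi1U1 at 74.5, Slpi1U2 at 62.4 and Slpi2 at 61.1. The largest difference among shERWOOD hairpins in that table was Ppl between Slpi2 and Slpi4 (-0.27 ± 0.05, adjusted p = 0.00433, limma). The other calls were of Cldn4, Cgn, Ctnnb1, Gja1 and Dsp, 1 each, and Epcam and Cdh1 differed by at most 0.04 and 0.02. Without either library of Slpi4, the 6 members called became 2 and 3.

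In the Mgp table, 17 of 26 members were called in at least 1 shERWOOD pair, against 36.9% of all genes, with 41 calls in 156 comparisons. The most calls came from Mgp1 against Mgp2, with 13 of 26 members (12.0% of all genes), and from Mgp2 against Mgp1U3, with 11 of 26 (25.1%). Mgp1U1 had 5 members called against each of Mgp1 (8.26%), Mgp2 (7.68%) and Mgp1U3 (7.66%), and Mgp1 against Mgp1U3 had 2 (7.24%). E-cadherin was at 507 CPM in Mgp1, 486 in Mgp1U3, 440 in Mgp1U1 and 401 in Mgp2. Neighbours in that order from Mgp1U3 down to Mgp1U1 differed (-0.15 ± 0.04 for Mgp1U1, adjusted p = 0.0439, limma), while Mgp1 against Mgp1U3 and Mgp1U1 against Mgp2 did not pass. Paracingulin ran from 270 CPM in Mgp1 to 208 in Mgp2 (0.33 ± 0.04, adjusted p = 4.36e-04, limma). Cdh1, Cgnl1, Dsg2, Dsp, Epcam, Marveld2 and Pkp4 were each lower in Mgp2 than in both Mgp1 and Mgp1U3. Claudin 4 went the other way, at 11.2 CPM in Mgp2 against 8.28, 7.08 and 7.39 in Mgp1, Mgp1U1 and Mgp1U3. Nectin 2 (Pvrl2) stood at 18.0 CPM in Mgp2 and 18.9 in Mgp1U1, against 12.9 in Mgp1 and 13.4 in Mgp1U3. Members called against Mgp1 were lower in Mgp2 in 9 cases and higher in 4. Those called against Mgp1U3 were lower in Mgp2 in 9 cases and higher in 2.

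Desmoplakin had the largest difference among shERWOOD hairpins of the Mgp table. It was at 204 CPM in Mgp1U3 and 192 in Mgp1, against 157 in Mgp2 and 153 in Mgp1U1 (Mgp1U1 minus Mgp1U3, -0.37 ± 0.06, adjusted p = 0.00112, limma). The libraries of Mgp2 had an SD of 20.9 CPM, against 0.791 in Mgp1, 1.10 in Mgp1U1 and 11.1 in Mgp1U3. The TRC line 88943, at 197 CPM, lay between these hairpins. The size of the TRC contrast exceeded the largest shERWOOD pair difference for 13 of 25 members (Slpi table, 53.2% of all genes tested) and 14 of 26 (Mgp table, 59.5%). Of the 13, 11 had passed the test of the TRC contrast, and all 14 had. Over all tested genes, 4420 of the 5048 that exceeded it in the Slpi table had passed, and 5252 of 5460 in the Mgp table. The Mgp count of 17 became 10 without either library of Mgp1 and 11 without either library of Mgp1U1. By level on the deposited scale, the median tested member lay above 55.9% of all tested genes (Slpi table) and 53.4% (Mgp table).

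**Figure D4:**
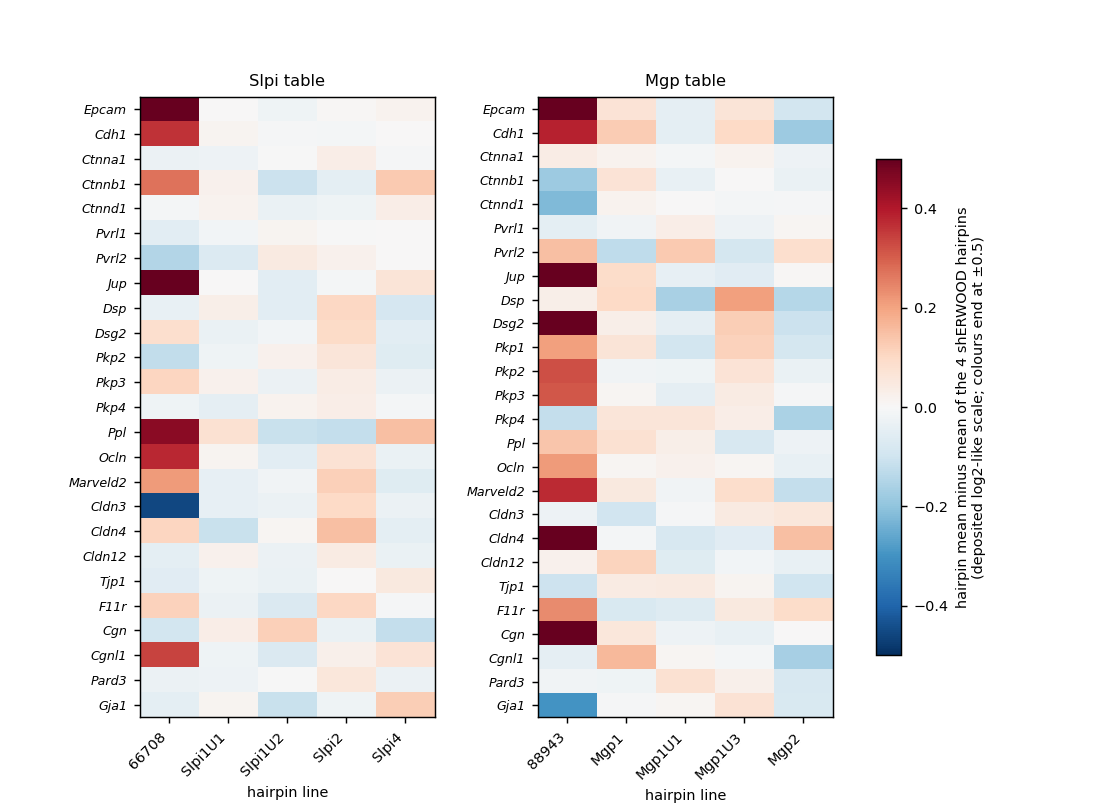
Mean of each hairpin minus the average of the table's 4 shERWOOD hairpins, on the deposited log2-like scale, for 25 genes (Slpi table, left) and 26 genes (Mgp table, right). Red is higher, blue lower, and colours end at ±0.5. The TRC columns hold the strongest colours, and in the Mgp table the Mgp2 column is blue for Cdh1, Cgnl1, Dsp and Pkp4 and red for Cldn4.

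Another 64 junction genes outside the 37 moved in both directions. For 66708, 28 of the 64 were tested, with 10 higher (32.1% of all genes), 11 lower (23.6%) and 7 not passed. For 88943, 27 were tested, with 11 higher (28.7%), 6 lower (42.0%) and 10 not passed. Perp, a tetraspan protein of desmosomes, had the largest difference of the list in 66708, 2.29-fold higher (0.95 ± 0.04, adjusted p = 1.055e-10, limma), and was lower in 88943 (-0.27 ± 0.04). Dst, the hemidesmosome and cytoskeleton linker dystonin, was 1.61-fold lower in 66708 (-0.66 ± 0.04). Ctnnal1, an α-catenin relative, was higher in 66708 (0.62 ± 0.04), and the junction scaffold Magi3 lower (-0.55 ± 0.04). In 88943, the nectin Pvrl3 was lower (-0.29 ± 0.04), and the scaffolds Inadl (0.26 ± 0.04) and Magi1 (0.22 ± 0.04) were higher. Pvrl3, Magi1 and Inadl had the opposite sign in 66708, at 0.24, -0.28 and -0.23.

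Known regulators of epithelial genes and the surface proteases that act on Epcam and junctions were taken from a list of 21. For 66708, 10 were tested, with 5 higher and 2 lower (55.7% of all genes were called), and for 88943, 9 were tested, with 3 higher and 2 lower (70.7% called). The surface protease matriptase (St14) was higher in both TRC lines, by 0.27 ± 0.05 in 66708 and 0.37 ± 0.03 in 88943, as was its inhibitor Spint2 (0.18 ± 0.04 and 0.21 ± 0.04). Spint1, a related inhibitor, was higher in 66708 (0.29 ± 0.04) and did not pass in 88943. Zeb2, a repressor of E-cadherin, was lower in both, by -0.15 ± 0.03 and -0.28 ± 0.03. Grhl2, an activator of epithelial genes, was higher in 66708 (0.18 ± 0.04), and Klf4 in 88943 (0.19 ± 0.03). The remaining calls among the genes tested, named after their values were seen, were of Twist1, a mesenchymal transcription factor that was higher in 66708 (0.15 ± 0.04), and of Esrp2, an epithelial splicing regulator that was lower in 66708 (-0.16 ± 0.03) and in 88943 (-0.09 ± 0.04).

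Keratins also moved with the TRC lines. The summed level of Krt7, Krt8, Krt18 and Krt19 was 1556 to 1628 CPM in 66708 against 1474 to 1601 in the shERWOOD libraries, and 1723 to 1746 CPM in 88943 against 986 to 1199. All 4 were higher in 88943, where 28.7% of all genes tested were. In 66708 Krt8 and Krt18 were higher (32.1% of all genes), and Krt7 (-0.47 ± 0.03) and Krt19 (-0.43 ± 0.04) were lower (23.6%). Krt14, a keratin of basal cells, was 3.67-fold higher in 66708 and 1.59-fold higher in 88943. The sum of 5 basal and myoepithelial markers was 33.0 to 34.5 CPM in 66708 against 10.9 to 13.6, and 32.9 to 33.9 CPM in 88943 against 16.3 to 23.3. Krt14 made up most of these sums, reaching 33.2 CPM in the Slpi table and 31.0 CPM in the Mgp table. Of the other 4, all below the minimum, 1 was lower in 66708 (13.2% of genes that varied) and 3 did not pass. In 88943, 1 of these 4 was higher (22.2% of genes that varied) and 3 did not pass. Of 7 fibroblast markers 6 stayed below 1 CPM. The exception, Pdgfra, was higher in 88943 (0.48 ± 0.05) and did not pass in 66708. The part of these markers in the junction gene differences was not tested.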

How the data were processed

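RNA of 4T1 lines carrying 10 hairpins was amplified from 100 ng with NuGEN Ovation and read at 76 bases, per the labels' protocols. The authors deposited 2 tables of variance-stabilized values on a log2-like scale, and the submitters' processing notes name mm10, Bowtie2, HTSeq and DESeq (versions and strand setting not given in the sources used here). Inverting the transform gave whole reads for 100% of values (tolerance 0.001), from which CPM and scaled reads were computed. Columns name the hairpin but no single sample, so each hairpin has 2 libraries.

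Genes with a mean at least 1 unit above the smallest value, about 121 (Slpi table) or 139 (Mgp table) scaled reads, were tested with limma 3.58.1 (R 4.3.3, trended variance, 1 mean per hairpin). The TRC hairpin was set against the average of its 4 table mates, and all hairpin pairs were compared. Benjamini-Hochberg adjustment ran over all tested genes. Doubling 100 scaled reads moves the deposited scale by 0.36 in the Slpi table and doubling 10000 by 0.97, so differences of weak genes are understated. On simulated data for 66708 against the others, 100% of 200 genes changed 2-fold were recovered with 12 false calls among 9489 genes. The simulation had fixed, low noise, no differences among the shERWOOD hairpins and no other changed genes. It therefore checks the code and does not give the error rate of the calls above or the recovery of smaller differences.

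Members and lists were chosen with earlier results of these data known. Named genes were the called members, up to 8 per direction, 5 by their largest shERWOOD pair difference, and 4 per further list. Gene positions are from GENCODE (GRCm38). Alternatives covered filters, scalings, voom on the recovered reads, single libraries left out, a column-number block and hairpin means. Depth limits weak members: intervals are not given for single libraries.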

Additional observations from a re-analysis of the deposited data

Results flagged for a closer look

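Ctnnb1 and Pkp2 lay on opposite sides of the shERWOOD libraries in the 2 TRC lines, with both libraries of each line on the same side. Ctnnb1 was at 0.27 in 66708 and -0.18 in 88943 on the deposited scale, and Pkp2 at -0.12 in 66708 and 0.32 in 88943. The difference between the TRC lines was not tested, since the tables were scaled separately. The calls of Ctnnb1 in 88943 and of Pkp2 in 66708 were each lost under alternatives, in which Pkp2 kept its sign and Ctnnb1 changed sign after quantile normalization.

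In 2 of 51 groups of 4 shERWOOD hairpin means, 1 hairpin stood apart from the other 3 by most of the whole range, which chance gives in about 1 of 20 groups. Pkp2 averaged 27.1 CPM in Mgp1U3, above the means of the other shERWOOD hairpins of the Mgp table, of which Mgp2 averaged 24.3 CPM with an SD of 4.09. Cldn3 averaged 62.4 CPM in Slpi2, above the other shERWOOD hairpins of the Slpi table. In these tables neither gene was called in any shERWOOD pair.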

How the results depend on the processing

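For 66708, the 8 higher members became 3 with a minimum of 3 units, where 9 members were tested. The 3 lower members became 0 with that minimum, 9 after quantile normalization, 12 by library totals (added after the data were seen) and 1 with hairpin means as samples. Leaving out single libraries gave 8 to 11 higher and 1 to 4 lower, with 1 lower without either library of 66708. For 88943, the 14 higher members became 22 with no filter (37 members) and 1 with the minimum of 3 units, where the lower stayed at 5. The 5 lower members became 3 with library medians equal, 1 after quantile normalization, 2 by library totals and 2 with hairpin means. Leaving out single libraries gave 11 to 14 higher and 3 to 5 lower, with 3 lower without the first library of 88943. Cgnl1 in 88943, not called, went to 0.10 after quantile normalization (adjusted p = 0.0130, limma). The reversed differences of Ctnnb1 (0.039), Pkp4 (0.0056) and Tjp1 (0.056) after quantile normalization and of Tjp1 by library totals (0.024) in 88943 had adjusted p over 0.05. The cause was not tested. Members called in at least 1 shERWOOD pair went from 6 to 1 with no filter and 3 with the minimum of 3 units in the Slpi table, and from 17 to 10 and 6 in the Mgp table. Leaving out single libraries gave 2 to 7 and 10 to 19 of them. Fewer members tested, or adjustment over more genes, comes with these filters. Equally numbered columns did not deviate together in every pair (correlations of -0.53 to 0.55 in the Slpi table and -0.17 to 0.28 in the Mgp table), so no pairing by number was assumed. Whether libraries shared a batch under other numbers was not tested. With the column number as a replicate block, 8 were higher and 3 lower in 66708 and 14 and 5 in 88943, and 4 and 18 members were called in shERWOOD pairs.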
